A study of Mus musculus with 6 samples.

Results

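The contractile apparatus of smooth muscle was followed through 31 genes, out of 18204 genes named alone by at least 1 probe set of the arrays. A probe set was used where the platform annotation named exactly 1 gene, and each gene was read through its probe set of highest mean signal over the 6 arrays. Total RNA came from the whole colon of NHE3-/- mice, which lack the sodium-hydrogen exchanger encoded by Slc9a3, and of their NHE3+/+ littermates, all aged 6 to 8 weeks, with 3 arrays per genotype. The labels give neither the part of the gene that was disrupted, the sex of the mice nor the number of animals behind an array, and a p-value here reflects only how these arrays vary, possibly for technical reasons. The comparison asks how loss of the exchanger alters transcript levels in the colon.

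Smooth muscle of the gut wall contracts when calcium entering through L-type channels activates myosin light chain kinase, which phosphorylates the myosin light chain and lets myosin pull on actin filaments. The filaments are anchored at dense bodies and at dense plaques of the cell membrane, where integrins join them to the matrix. Serum response factor (Srf) and its muscle co-activator myocardin (Myocd) drive many of these genes through a promoter element named the CArG box. Several of the genes, among them Tpm1, Vcl, Actn1, Flna, Cav1, Csrp1 and Srf, are also transcribed in many cell types outside muscle.

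The values were deposited signals on a linear scale, scaled to a trimmed mean of 500 on every array. Genotypes were compared with limma on log2(signal + 31.4), and a log2 fold change is NHE3-/- minus NHE3+/+ on that scale, which understates the change of dim genes. A probe set was tested where its mean log2 value reached the 40th percentile, and a gene was said to have risen or fallen where the adjusted p was under 0.05. By this rule 11.2% of the 27024 probe sets tested were called, 1342 of them higher and 1685 lower in NHE3-/- colon (1597 higher and 839 lower with array medians set equal). Slc9a3 itself, read by its brighter probe set, had 5970, 4266 and 3665 on the NHE3-/- arrays and 5908, 5647 and 6669 on the NHE3+/+ arrays (log2 fold change -0.42, limma adjusted p = 0.12). The dimmer Slc9a3 probe set had 473.4, 608.7 and 264.9 on the NHE3-/- arrays and 345.6, 344.8 and 107.8 on the NHE3+/+ arrays. Its log2 fold change had the other sign, 0.76 (limma adjusted p = 0.23). A probe set outside the disrupted part would check nothing.

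The NHE3-/- arrays were not alike. Xist, the RNA of the inactive X chromosome in female cells, had a signal of 2639, 1929 and 12.3 on NHE3-/- arrays 1, 2 and 3, against 4.3, 8.0 and 2.0 on the NHE3+/+ arrays. In Xist, NHE3-/- array 3 was thus near the NHE3+/+ arrays, and NHE3-/- arrays 1 and 2 were not. Over all arrays, genotype is therefore partly confounded with Xist level, and the 2 cannot be fully told apart. For Actg2, Tagln, Csrp1, Actn1 and Itga7, fits without single arrays are also given. Other genes, among them Acta2, Cald1, Myh11 and Pln, also changed sign between the fit without NHE3-/- array 3 and that with it alone. The ratio of the 3' to the 5' signal of the Actb control, a measure of RNA integrity, was 1.18 to 1.27 on NHE3-/- arrays and 1.28 to 1.54 on NHE3+/+ arrays. The same ratio of the Gapdh control overlapped, at 0.74 to 0.78 on NHE3-/- arrays and 0.73 to 0.88 on NHE3+/+ arrays. The part of RNA integrity in the results was not tested.

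In NHE3-/- colon, 3 of the 23 smooth muscle genes past the filter fell and 0 rose. Those that fell were Csrp1, Actn1 and Itga7, all of the dense plaque and membrane skeleton. The background over all probe sets tested was 6.24% lower and 4.97% higher, against which the members' share was 13.0% lower. The members were chosen with earlier results of these data known, so this difference tests nothing. None of the actin filament or myosin genes tested passed the threshold in the fit over 6 arrays. The median log2 fold change of the 23 genes was -0.11, beside -0.10 for all probe sets tested, and 12 of the 23 values were negative. All 3 NHE3-/- arrays lay below all 3 NHE3+/+ arrays for 7 of the 23 genes and above them for 2, against 20.1% and 12.2% of all probe sets tested. RNA of a whole tissue does not separate fewer cells of a type from less RNA per cell.

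**Figure D1:**
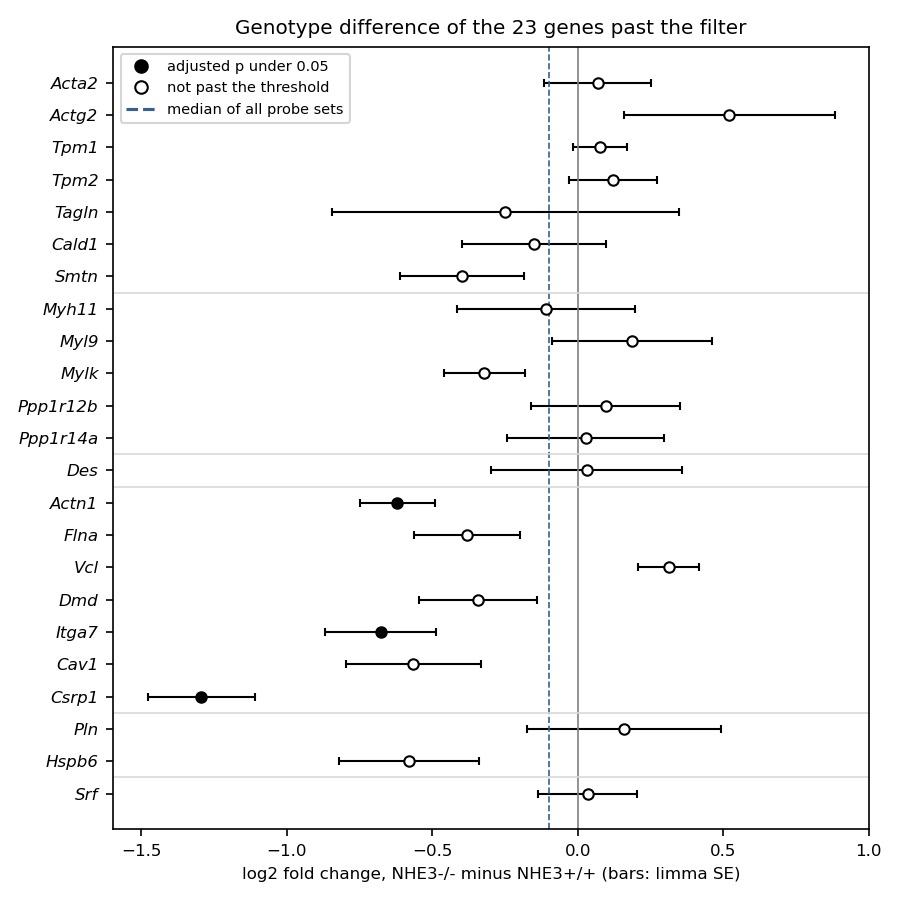
Log2 fold change (NHE3-/- minus NHE3+/+, horizontal axis) of the 23 smooth muscle genes past the filter, grouped by role, with limma standard errors as bars and filled points for an adjusted p under 0.05. Csrp1, Actn1 and Itga7 are the filled points, at -1.29, -0.62 and -0.68, and the dashed line marks the median of all probe sets at -0.10.

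The tissue label was checked against the muscle genes themselves. The smooth muscle markers Acta2, Actg2, Tagln, Myh11 and Myl9 passed the filter, which is a cut on mean signal and no call of detection. Their mean NHE3+/+ signals were 1030, 166, 158, 141 and 219, beside NHE3+/+ array medians of 99.7 to 121.4 over all probe sets. How much muscle the tissue held cannot be read from these values. Of the 31 genes, 8 lay below the filter, among them genes known as markers of differentiated smooth muscle. These were Cnn1, Lmod1, Synpo2, Synm, Pgm5, Itga8, Cacna1c and Myocd. Lmod1, a leiomodin that nucleates actin filaments in smooth muscle, had signals of 7.3, 9.5 and 15.1 on the NHE3-/- arrays and 3.7, 13.2 and 5.3 on the NHE3+/+ arrays. Myocd had 6.4, 6.1 and 40.2 on the NHE3-/- arrays and 5.3, 47.7 and 4.3 on the NHE3+/+ arrays. Cacna1c, the pore of the L-type calcium channel, had 8.8, 27.1 and 36.0 on the NHE3-/- arrays and 9.0, 97.9 and 5.0 on the NHE3+/+ arrays. For these 3 genes the groups overlapped, and no level beyond the dim end of the array was read. Signals of different probe sets also depend on how well their probes bind, so they do not rank the genes by abundance.

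**Figure D2:**
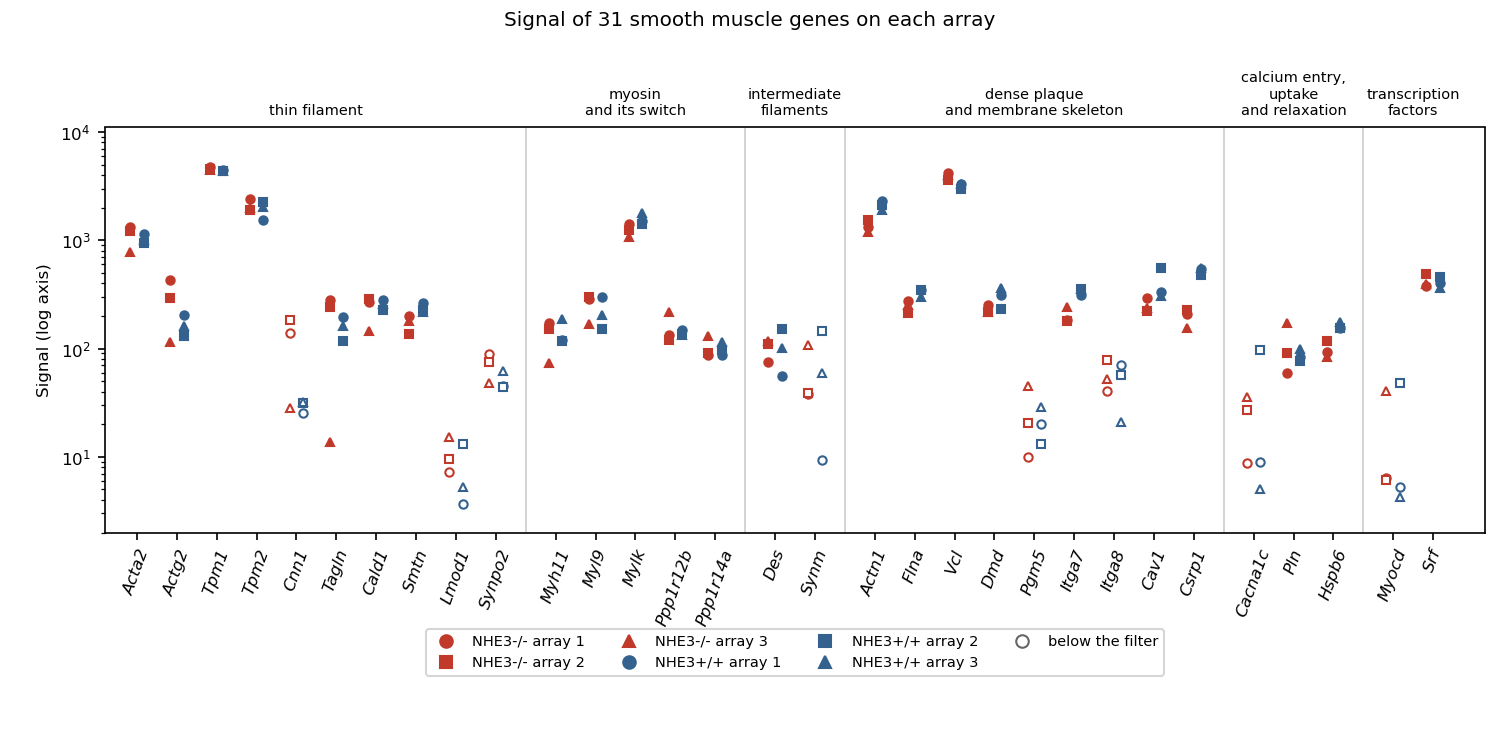
Signal on a log axis of all 31 genes on each array, by role, with NHE3-/- arrays in red at the left of each pair and NHE3+/+ arrays in blue at the right. Open symbols mark the 8 genes below the filter, and the red triangle of Tagln at 13.8 is NHE3-/- array 3.

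The thin filament, the actin cable with its regulatory proteins, was represented by 10 genes, of which 7 passed the filter and 0 of these passed the test. Acta2, the alpha actin of vascular and visceral smooth muscle, had signals of 1324, 1209 and 779.5 on NHE3-/- arrays 1, 2 and 3 and 1146, 941 and 1003 on the NHE3+/+ arrays. Array 3 was the lowest and arrays 1 and 2 the highest of the 6, so the NHE3-/- values lay on both sides of the NHE3+/+ values (log2 fold change 0.07, SE 0.19, limma adjusted p = 0.85). The probe set carries the platform's suffix for probes that more than 1 transcript can share, and actin genes are close copies of each other, so its gene is uncertain.

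Actg2, the gamma actin typical of gut muscle, had 427.5, 293.7 and 115.9 on NHE3-/- arrays 1, 2 and 3 and 204.0, 130.8 and 163.2 on the NHE3+/+ arrays. Arrays 1 and 2 of NHE3-/- were above all NHE3+/+ arrays and array 3 was below them. Its log2 fold change was 0.52 (SE 0.36, limma adjusted p = 0.38) over all arrays, 0.99 (adjusted p = 0.0501) without NHE3-/- array 3 and -0.41 (adjusted p = 0.56) with NHE3-/- array 3 alone.

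Tagln, which encodes the actin-bundling protein transgelin (SM22), had 282.5, 241.9 and 13.8 on NHE3-/- arrays 1, 2 and 3 and 195.6, 116.5 and 162.3 on the NHE3+/+ arrays. The lowest value of the 6 and the 2 highest were all on NHE3-/- arrays. Its log2 fold change was -0.25 (SE 0.60, limma adjusted p = 0.82). It was 0.65 (adjusted p = 0.176) without NHE3-/- array 3, and -2.05 (adjusted p = 0.0204) with that array alone against NHE3+/+, a fit that assumes it to vary as the NHE3+/+ arrays do.

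Cnn1, calponin, which binds actin and slows the myosin motor, lay below the filter. It had 139.7, 185.1 and 28.1 on NHE3-/- arrays 1, 2 and 3 and 25.3, 31.5 and 32.3 on the NHE3+/+ arrays. The first 2 NHE3-/- arrays were above all others and array 3 was within the NHE3+/+ range. Without a filter its log2 fold change was 1.09 (limma adjusted p = 0.238).

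Cald1, caldesmon, an actin-binding inhibitor of myosin, had 270.3, 288.6 and 145.3 on the NHE3-/- arrays and 279.9, 228.0 and 257.0 on the NHE3+/+ arrays, with NHE3-/- array 3 lowest. Of its other 2 tested probe sets, the brighter had 185.9, 238.9 and 168.0 on the NHE3-/- arrays and 174.3, 213.9 and 203.0 on the NHE3+/+ arrays, with array 3 of NHE3-/- again lowest. The other had 104.0, 134.8 and 173.4 on the NHE3-/- arrays and 158.3, 141.2 and 160.1 on the NHE3+/+ arrays, so that the probe sets of Cald1 placed this array differently. Tpm1 and Tpm2 encode tropomyosins, which lie along actin and gate its access to myosin. Tpm1 had 4793, 4508 and 4501 on the NHE3-/- arrays and 4416, 4316 and 4363 on the NHE3+/+ arrays. Those groups did not overlap, yet the difference was small (log2 fold change 0.07, SE 0.09, limma adjusted p = 0.65). A further Tpm1 probe set had a log2 fold change of -0.64 (adjusted p = 0.106), so the probe sets of this gene, which has many splice forms, did not share a sign. Tpm2 had 2398, 1898 and 1995 on the NHE3-/- arrays and 1537, 2245 and 2038 on the NHE3+/+ arrays, with overlapping groups.

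Smtn, smoothelin, had 200.6, 137.3 and 180.5 on the NHE3-/- arrays and 261.6, 226.6 and 219.7 on the NHE3+/+ arrays. All NHE3-/- values were below all NHE3+/+ values, but the fit did not pass (log2 fold change -0.40, SE 0.21, limma adjusted p = 0.25). Synpo2, an actin-bundling protein of muscle, lay below the filter at 88.3, 75.4 and 47.8 on the NHE3-/- arrays and 45.4, 43.9 and 61.8 on the NHE3+/+ arrays.

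Of the 5 genes of myosin and its switch, all passed the filter and 0 passed the test. Myh11, the smooth muscle myosin heavy chain, had 170.8, 152.0 and 74.2 on NHE3-/- arrays 1, 2 and 3 and 121.0, 116.6 and 186.2 on the NHE3+/+ arrays, with NHE3-/- array 3 lowest of all (log2 fold change -0.11, SE 0.31, limma adjusted p = 0.85). Myl9, the regulatory light chain that the kinase phosphorylates, had 288.1, 298.8 and 168.1 on the NHE3-/- arrays and 301.0, 152.6 and 203.0 on the NHE3+/+ arrays. The groups of both genes overlapped.

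Mylk, the light chain kinase, had 1419, 1242 and 1082 on the NHE3-/- arrays and 1508, 1408 and 1776 on the NHE3+/+ arrays. Only NHE3-/- array 1 reached into the NHE3+/+ range (log2 fold change -0.32, SE 0.14, limma adjusted p = 0.164). Its second probe set had 986, 902.5 and 871 on the NHE3-/- arrays and 1209, 1140 and 1253 on the NHE3+/+ arrays. Those groups did not overlap, and the adjusted p was 0.0704 (log2 fold change -0.37). The dimmest Mylk probe set had a value of the other sign, 0.12.

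The phosphatase side of the switch was read by Ppp1r12b, a targeting subunit of myosin phosphatase, and Ppp1r14a, its inhibitor CPI-17. Ppp1r12b had 132.5, 118.8 and 217.4 on the NHE3-/- arrays and 147.6, 137.4 and 134.5 on the NHE3+/+ arrays. Ppp1r14a had 87.1, 91.6 and 130.4 on the NHE3-/- arrays and 88.0, 96.9 and 114.0 on the NHE3+/+ arrays. Unlike the actin and myosin genes above, both were highest on NHE3-/- array 3, and their groups overlapped.

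Among the intermediate filament genes, Des, the muscle protein desmin, had 75.1, 110.5 and 118.2 on the NHE3-/- arrays and 55.2, 151.8 and 102.2 on the NHE3+/+ arrays (log2 fold change 0.03, SE 0.33, limma adjusted p = 0.96). Its other probe set had 114.0, 103.6 and 23 on the NHE3-/- arrays and 88.6, 122.3 and 87.7 on the NHE3+/+ arrays, so the 2 probe sets placed NHE3-/- array 3 differently. Synm, synemin, a partner of desmin, lay below the filter at 38.4, 39.1 and 106.8 on the NHE3-/- arrays and 9.3, 144.4 and 59.1 on the NHE3+/+ arrays.

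The dense plaque and membrane skeleton held 9 genes, of which 7 passed the filter, 3 fell and 0 rose. The share lower was 42.9%, beside 6.24% of all probe sets tested, in a small group drawn up here. The median log2 fold change of the 7 was -0.56. Csrp1, a LIM-domain protein that binds zyxin and alpha-actinin on actin filaments, had the largest change of the 23 genes tested. Its signal was 206.8, 228.2 and 156.1 on the NHE3-/- arrays and 545.1, 479.4 and 549.1 on the NHE3+/+ arrays. The groups did not overlap. The means were 197 ± 37.0 in NHE3-/- and 524.5 ± 39.1 in NHE3+/+ colon (SD, n = 3 each; log2 fold change -1.29, SE 0.19, limma adjusted p = 0.00166). A dimmer Csrp1 probe set had 252.3, 370.2 and 172.6 on the NHE3-/- arrays and 462.4, 362.1 and 452.4 on the NHE3+/+ arrays. There the groups overlapped and the adjusted p was 0.0994 (log2 fold change -0.67).

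Actn1, the non-muscle type alpha-actinin that cross-links actin, had 1339, 1537 and 1199 on the NHE3-/- arrays and 2316, 2102 and 1886 on the NHE3+/+ arrays. The groups did not overlap, and the means were 1358 ± 169.9 in NHE3-/- and 2101 ± 214.8 in NHE3+/+ colon (SD, n = 3 each; log2 fold change -0.62, SE 0.13, limma adjusted p = 0.0126). All 3 Actn1 probe sets had negative values, from -0.62 to -0.27, and only the brightest passed. With array medians set equal the adjusted p was 0.0602 (log2 fold change -0.53). Csrp1 was then the only member called lower, against 3.1% of all probe sets, while after quantile normalization Csrp1 and Actn1 were, against 4.93%.

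Itga7, the alpha subunit of a laminin receptor, had 183.4, 181.1 and 242.4 on the NHE3-/- arrays and 312.9, 351.4 and 356.4 on the NHE3+/+ arrays. The groups did not overlap, and the means were 202.3 ± 34.8 in NHE3-/- and 340.2 ± 23.8 in NHE3+/+ colon (SD, n = 3 each; log2 fold change -0.68, SE 0.19, limma adjusted p = 0.044). This call was close to the threshold. Of the 6 fits with 1 array removed it held in 1, the fit without NHE3-/- array 3 (adjusted p = 0.0451). In the others the adjusted p ran from 0.0634 without NHE3+/+ array 1 to 0.125 without NHE3+/+ array 3, through 0.114 without NHE3+/+ array 2, 0.121 without NHE3-/- array 1 and 0.109 without NHE3-/- array 2. With array medians set equal it was 0.0912, and after quantile normalization 0.127.

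The other plaque genes gave values that did not pass. Vcl, vinculin, which ties actin to integrin complexes, had 4215, 3631 and 4016 on the NHE3-/- arrays and 3277, 2960 and 3297 on the NHE3+/+ arrays. It was the only one of the 7 tested genes of its group with a positive value, and the groups did not overlap (log2 fold change 0.31, SE 0.11, limma adjusted p = 0.0821). Its second probe set also had non-overlapping groups, with 469.4, 451.9 and 512.2 on the NHE3-/- arrays and 363.3, 312.3 and 287.9 on the NHE3+/+ arrays (log2 fold change 0.53, adjusted p = 0.0585). The mean of both probe sets did pass (log2 fold change 0.42, adjusted p = 0.0437).

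Cav1, the coat protein of caveolae, had 291.4, 223.8 and 238.2 on the NHE3-/- arrays and 333.2, 555.4 and 304.7 on the NHE3+/+ arrays. Flna, filamin A, an actin cross-linker, had 276.8, 215.0 and 250.1 on the NHE3-/- arrays and 345.9, 348.2 and 297.2 on the NHE3+/+ arrays. Both had non-overlapping groups with NHE3-/- lower, at log2 fold changes of -0.56 (limma adjusted p = 0.141) and -0.38 (adjusted p = 0.205). Dmd, dystrophin, had 251.3, 215.3 and 219.2 on the NHE3-/- arrays and 312.8, 233.1 and 360.0 on the NHE3+/+ arrays, which overlapped, and its second probe set had the other sign. Pgm5, a phosphoglucomutase-like protein of adherens plaques, was below the filter at 10.0 to 45.3 on the NHE3-/- arrays and 13.1 to 28.8 on the NHE3+/+ arrays. Itga8, an integrin alpha subunit of mesenchymal cells, was below it at 40.8 to 79.2 on the NHE3-/- arrays and 21.0 to 70.3 on the NHE3+/+ arrays.

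Of the genes of calcium handling and relaxation, Hspb6, a small heat shock protein phosphorylated during relaxation by cyclic nucleotides, had 93.2, 117.6 and 83.2 on the NHE3-/- arrays and 155.3, 153.2 and 174.7 on the NHE3+/+ arrays. The groups did not overlap, and the fit did not pass (log2 fold change -0.58, SE 0.24, limma adjusted p = 0.148). Pln, phospholamban, the inhibitor of the calcium pump of the sarcoplasmic reticulum, had 59.7, 90.2 and 173.4 on the NHE3-/- arrays and 83, 76.9 and 99.8 on the NHE3+/+ arrays. It was lowest on NHE3-/- array 1 and highest on NHE3-/- array 3 (log2 fold change 0.16, SE 0.33, adjusted p = 0.80).

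Srf, the transcription factor, had 380.0, 488.0 and 390.7 on the NHE3-/- arrays and 401.9, 457.1 and 365.6 on the NHE3+/+ arrays, with overlapping groups (log2 fold change 0.03, SE 0.17, limma adjusted p = 0.92). Its second probe set had 425.3, 389.2 and 585.6 on the NHE3-/- arrays and 335.0, 366.5 and 341.1 on the NHE3+/+ arrays. There the groups did not overlap, and the fit did not pass (log2 fold change 0.38, adjusted p = 0.209).

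Since Srf acts through the CArG box, the promoter windows of the members were searched for it. RefSeq windows of assembly GRCm38.p6, from 250 bases before to 50 after each annotated start, matched 26 of the 31 genes by symbol, and Actg2, Itga7, Myh11, Myocd and Tagln were not used here. The element has 10 letters with a core of 6 that are A or T, and its pattern reads the same on both strands. An exact match lay in the windows of 4 members (Dmd, Myl9, Srf and Vcl) and in 1.81% of 27025 genes with a window. A match with 1 core letter changed to C or G lay in those of 5 members (Acta2, Cacna1c, Hspb6, Myl9 and Synm) and in 9.70% of genes. No match in these windows was found for Csrp1 or Actn1, which says only that these letters are not there.

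The stretches below show the element in the promoters of the actin, light chain, vinculin, dystrophin and Srf genes, 5′ to 3′ on the gene's strand, with the matches in capitals. Those of Acta2 and the second of Myl9 have 1 changed letter. They lie at chr19:34255378-34255477 (minus strand) for Acta2, chr2:156775283-156775394 (plus) for Myl9, chr14:20929151-20929200 (plus) for Vcl, chrX:82948752-82948801 (plus) for Dmd and chr17:46556195-46556264 (minus) for Srf.
Acta2: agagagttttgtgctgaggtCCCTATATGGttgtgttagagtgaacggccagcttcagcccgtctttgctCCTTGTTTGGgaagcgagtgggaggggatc
Myl9: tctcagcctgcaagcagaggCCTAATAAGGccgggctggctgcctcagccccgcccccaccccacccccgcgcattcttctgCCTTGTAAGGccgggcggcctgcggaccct
Vcl: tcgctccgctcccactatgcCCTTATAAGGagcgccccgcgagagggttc
Dmd: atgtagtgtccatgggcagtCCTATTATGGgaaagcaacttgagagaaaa
Srf: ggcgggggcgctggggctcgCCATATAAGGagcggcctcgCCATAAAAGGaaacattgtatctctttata
The first matches began 84 bases before the start for Acta2, 161 for Myl9, 227 for Vcl, 98 for Dmd and 82 for Srf. Of these 5 genes, read by their brightest probe sets, Vcl was higher in NHE3-/- without passing, and the other 4 had overlapping groups. The mean of both Vcl probe sets did pass. The second Srf probe set was higher in NHE3-/- with no overlap, and did not pass.

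Several filament and myosin genes differed among the NHE3-/- arrays. NHE3-/- array 3 was the lowest of its group for 7 of the 10 thin filament genes and 3 of the 5 genes of myosin and its switch. Among tested thin filament genes this held for 5 of 7, where Tpm1 counted at 4501 against 4508 on array 2. For all 31 members, dim genes included, array 3 was the lowest of its group in 41.9%. Over the 23 tested genes it was the lowest of its group for 11, against 35.7% of all probe sets tested, and the lowest of all 6 arrays for 9, against 24.6%. The 9 were Acta2, Actg2, Tagln, Cald1, Myh11, Mylk, Actn1, Csrp1 and Hspb6, each read by its brightest probe set.

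Measured as the median over genes of the log2 value minus the NHE3+/+ mean, the 7 tested thin filament genes stood at 0.32, 0.16 and -0.38 on NHE3-/- arrays 1, 2 and 3 and at 0.14, -0.12 and 0.00 on the NHE3+/+ arrays. The 7 dense plaque genes stood at -0.37, -0.55 and -0.44 on the NHE3-/- arrays and at 0.05, 0.01 and 0.05 on the NHE3+/+ arrays. These medians do not hold for each gene. Among the filament genes, Smtn was below 0 and Tpm1 above 0 on all 3 NHE3-/- arrays, and among the plaque genes Vcl was above 0 on all 3. Over all 27024 probe sets the same median was -0.09, -0.08 and -0.08 on the NHE3-/- arrays and -0.02, 0.02 and 0.01 on the NHE3+/+ arrays.

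**Figure D3:**
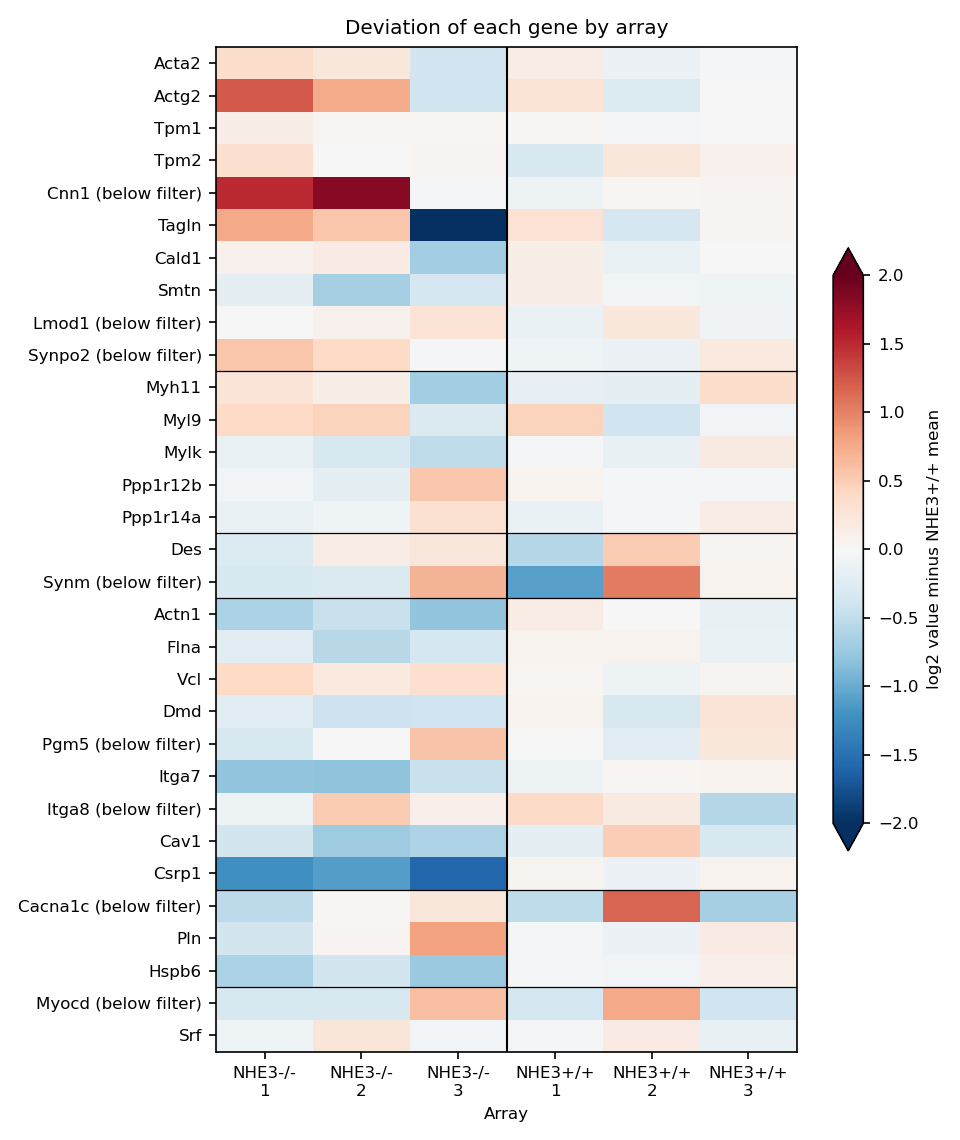
Log2 value minus the NHE3+/+ mean (colour, red above and blue below) for each of the 31 genes by array, NHE3-/- arrays at the left. Acta2, Actg2, Tagln, Cald1 and Myh11 are above 0 on NHE3-/- arrays 1 and 2 and below 0 on array 3, while Actn1, Itga7 and Csrp1 are below 0 on all 3 NHE3-/- arrays.

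The widest spread among the 31 genes was that of Tagln on the NHE3-/- arrays, with an SD of 1.56 on the log2 scale, against 0.31 on the NHE3+/+ arrays. Cnn1 had 0.99 on the NHE3-/- and 0.09 on the NHE3+/+ arrays, and Actg2 0.84 on the NHE3-/- and 0.27 on the NHE3+/+ arrays. Other genes spread more on the NHE3+/+ arrays. Synm had 0.565 on the NHE3-/- and 1.057 on the NHE3+/+ arrays, and Cacna1c 0.385 on the NHE3-/- and 1.015 on the NHE3+/+ arrays. Cnn1, Synm and Cacna1c lay below the filter. The median SD over all probe sets tested was 0.21 on the NHE3-/- and 0.22 on the NHE3+/+ arrays. With 1 NHE3-/- array of little Xist signal, its Xist level and its other properties cannot be told apart.

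With NHE3-/- array 3 alone against NHE3+/+, 3 members were lower, Tagln, Csrp1 and Actn1, with 4.69% of probe sets called lower in that fit. The median of the members was -0.38 there, beside -0.08 for all probe sets. Csrp1 had -1.57 (limma adjusted p = 0.00708) and Actn1 -0.79 (adjusted p = 0.0331) in it. Without NHE3-/- array 3, Csrp1 had -1.16 (adjusted p = 0.00527) and Actn1 -0.54 (adjusted p = 0.0482). These fits share the NHE3+/+ arrays, and both genes had been called over all 6 arrays, so they are no independent check.

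**Figure D4:**
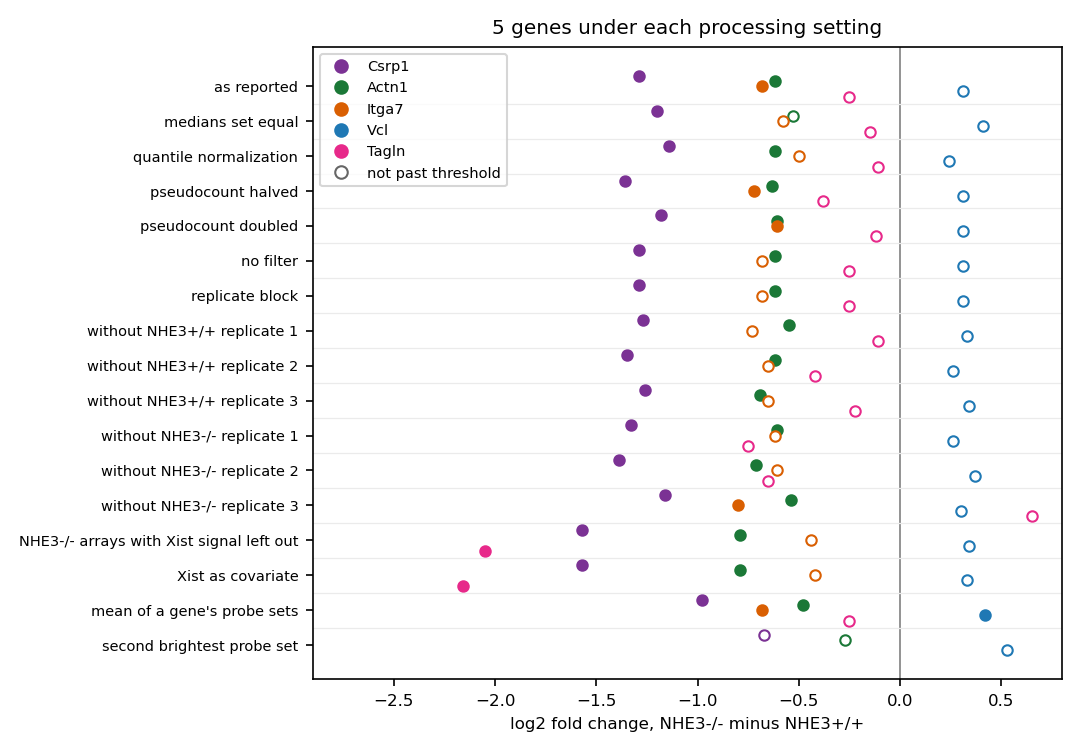
Log2 fold change (NHE3-/- minus NHE3+/+) of 5 genes under each processing setting, filled where the adjusted p was under 0.05. Csrp1 stays at the left, between -1.57 and -0.67, while Tagln lies between -2.16, with Xist as a covariate, and 0.65, without NHE3-/- array 3.

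Further genes of the same machinery were tested too, each read by its brightest probe set only. Of 28 tested contractile and plaque genes outside the members, 3 fell and 1 rose, with a median log2 fold change of -0.16. Cnn3, the acidic calponin of non-muscle cells, fell (log2 fold change -1.01, SE 0.16, limma adjusted p = 0.00299), with signals of 888.5, 1119 and 694.0 on the NHE3-/- arrays and 1923, 1800.0 and 1737 on the NHE3+/+ arrays. Tpm4, a cytoskeletal tropomyosin, had 1856, 2650 and 2045 on the NHE3-/- arrays and 3414, 3559 and 3233 on the NHE3+/+ arrays (log2 fold change -0.65, adjusted p = 0.012). Zyx, the Csrp1 partner zyxin, had 1047, 969 and 1005 on the NHE3-/- arrays and 1250, 1459 and 1432 on the NHE3+/+ arrays (log2 fold change -0.44, adjusted p = 0.0387).

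The gene that rose was Fhl1, a LIM-only protein of muscle and other tissues, with 13971, 11286 and 17100 on the NHE3-/- arrays and 9289, 9904 and 9277 on the NHE3+/+ arrays (log2 fold change 0.55, limma adjusted p = 0.0265). Fhl1 did not pass without a filter (limma adjusted p = 0.0541). The groups of the 4 genes that passed did not overlap. Other plaque genes of this list did not pass. Among them were Tln1 (log2 fold change -0.15), Pxn (0.20), Ilk (-0.19), Itgb1 (-0.05), Lpp (0.19) and Pdlim7 (-0.23).

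Of 17 tested genes of calcium and cyclic nucleotide signalling, 2 fell and 0 rose. Slc8a1, a sodium-calcium exchanger, had 272.1, 171.1 and 197.2 on the NHE3-/- arrays and 400.5, 387.1 and 471.8 on the NHE3+/+ arrays (log2 fold change -0.90, limma adjusted p = 0.0173). Pde5a, the phosphodiesterase that breaks down cyclic GMP, had 1234, 1142 and 1005 on the NHE3-/- arrays and 1630, 1512 and 2236 on the NHE3+/+ arrays (log2 fold change -0.64, adjusted p = 0.0251). Of 15 tested regulators of the muscle programme, Hdac4, a histone deacetylase that restrains Mef2 factors (log2 fold change -0.73, adjusted p = 0.0303), and Tead1, a transcription factor of the Hippo pathway (-0.67, adjusted p = 0.0299), fell and 0 rose. Hdac4 did not pass without a filter (limma adjusted p = 0.0562), and Tead1 did (0.0457). The share of genes lower was 10.7%, 11.8% and 13.3% in these 3 lists, beside 6.24% of all probe sets. These shares rest on 3, 2 and 2 genes, each read by its brightest probe set, while the background counts every tested probe set. The lists were chosen with earlier results of these data known, so the differences from the background test nothing.

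Markers of the other cells of the colon were read beside these results, each by its brightest probe set only. All 10 epithelial markers passed the filter, and their summed signal was 235621 to 277645 on the NHE3-/- and 219497 to 253875 on the NHE3+/+ arrays. Its highest value was on NHE3-/- array 3. In that list the cytoskeletal keratin Krt18 (log2 fold change -0.81, limma adjusted p = 0.00106) and the intestinal transcription factor Cdx2 (-0.58, adjusted p = 0.0191) fell, and Vil1, villin of the brush border, rose (0.41, adjusted p = 0.0203). Vil1 did not pass without a filter (limma adjusted p = 0.0523), while Krt18 and Cdx2 did. The defining marker Epcam had 28157, 28547 and 31454 on the NHE3-/- and 24617, 28489 and 21888 on the NHE3+/+ arrays. The summed signal of the 31 smooth muscle genes was 19505, 17958 and 16860.1 on NHE3-/- arrays 1, 2 and 3 and 18533, 18431 and 18629.9 on the NHE3+/+ arrays. Tpm1 and Vcl, which many cell types transcribe, gave the largest signals in that sum, so it is not a measure of muscle content. The part of epithelial content in the muscle results was not tested.

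Of 12 fibroblast and matrix markers, 11 were tested and 0 passed, and their summed signal was 4455 to 5041 on the NHE3-/- and 4753 to 5709 on the NHE3+/+ arrays. Of 8 endothelial markers 5 were tested and 0 passed, with sums of 709.2 to 801.9 on the NHE3-/- and 673.2 to 956.6 on the NHE3+/+ arrays. Of 7 pericyte markers 4 were tested and 0 passed, with sums of 792.1 to 976.4 on the NHE3-/- and 797.6 to 988.2 on the NHE3+/+ arrays. The ranges of all these lists overlapped between the genotypes, and among their defining markers Pecam1, Cdh5 and Kcnj8 lay below the filter. Elavl4 and Prph of the neurons and Msln, Upk3b and Wt1 of the mesothelium lay below it too.

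Of 9 markers of enteric neurons with a probe set, 5 were tested, and Nos1, the neuronal nitric oxide synthase, rose (log2 fold change 1.14, SE 0.30, limma adjusted p = 0.0326). Nos1 did not pass without a filter (limma adjusted p = 0.0781). The summed signal of the 9, of which 4 lay below the filter, was 740.5, 541.9 and 1042 on the NHE3-/- and 512.5, 572.2 and 556.3 on the NHE3+/+ arrays. It was highest on NHE3-/- array 3, as was the sum of the striated muscle markers, most of them below the filter. Of 3 tested markers of interstitial cells of Cajal, 1 fell and 0 rose. Kit, the receptor that marks these cells and mast cells, fell (-1.10, SE 0.19, adjusted p = 0.00408). Ano1, a chloride channel of the same pacemaker cells and of epithelium, had 0.06 (adjusted p = 0.80), and Gpr20 had -0.07 (adjusted p = 0.845). Only 1 of 4 glial markers passed the filter, Sox10, at 0.40 (adjusted p = 0.448), and only 1 of 4 mesothelial markers, Lrrn4, at -0.11 (adjusted p = 0.851).

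Striated muscle shares Dmd, Itga7 and Pln with smooth muscle. Of its 14 markers 11 lay below the filter, including the myosin heavy chains Myh1, Myh2 and Myh4, and 0 of the 3 tested passed. Its summed signal was 705.9, 724.6 and 1084 on the NHE3-/- and 736.9, 883.5 and 721.2 on the NHE3+/+ arrays. Of 2 adipocyte markers tested, Adipoq, adiponectin, fell (log2 fold change -1.77, limma adjusted p = 0.0484), with 36.4, 71.7 and 14.1 on the NHE3-/- arrays and 156.2, 526.3 and 90.3 on the NHE3+/+ arrays. Cidec, a lipid droplet protein, rose (0.98, adjusted p = 0.0301). Neither passed without a filter (limma adjusted p = 0.0936 for Adipoq and 0.0574 for Cidec).

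**Figure D5:**
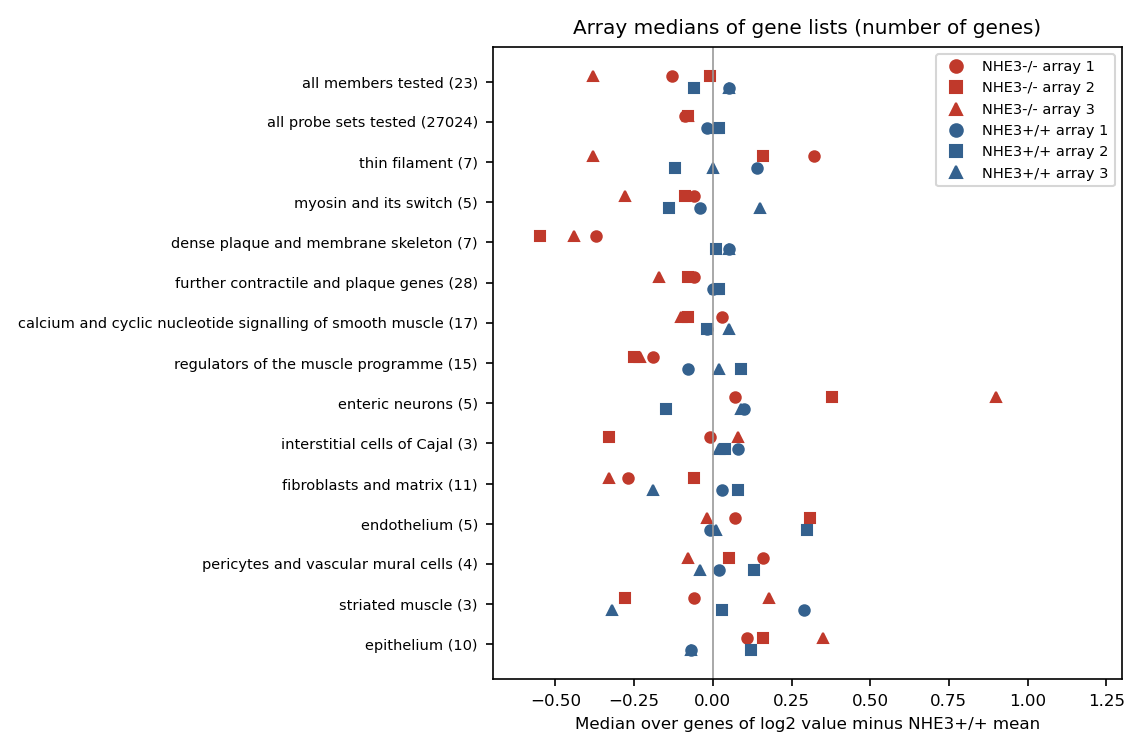
Median over the genes of each list of the log2 value minus the NHE3+/+ mean, per array, for lists with at least 3 tested genes (number in brackets), NHE3-/- arrays in red above NHE3+/+ arrays in blue. The thin filament list spreads from -0.38 to 0.32 over the NHE3-/- arrays, and the dense plaque list lies between -0.55 and -0.37 on them.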

How the data were processed

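Deposited values were intensity signals, 1 per probe set and array of the Affymetrix MOE430 2.0 platform. Per the submitters' processing notes the software was GCOS. Its version and settings are not stated there. Files show a 2% trimmed mean of 500 on each array, a linear scale and no centring, and a ratio direction does not apply to single-label arrays. Median signals were 97.8, 99.0 and 103.9 on the NHE3-/- and 99.7, 121.4 and 106.9 on the NHE3+/+ arrays. Of 45101 probe sets, 34970 name 1 gene, 920 several and 9211 none, and 34754 of the 34970 matched RefSeq (GRCm38.p6) by gene ID for current symbols.

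The authors' signals were turned into log2(signal + 31.4), the pseudocount being their 25th percentile. After removal of 64 controls and probe sets under the 40th percentile of mean log2 value, 27024 were fitted with limma 3.58.1 in R 4.3.3 (lmFit, then eBayes with a trend; a two-sided test of genotype with Benjamini-Hochberg adjustment). The fit was tested on simulated data. The number of arrays limits the precision.

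The members and lists were chosen with earlier results of these data known. Named were all members, in each other list up to 4 genes past the threshold by largest change, defining markers, and some genes that did not pass. Genes of a list that no probe set named alone were not analysed here. Alternatives were 2 scalings, 2 pseudocounts, no filter, a replicate block, each array left out, NHE3-/- arrays with Xist signal left out, Xist as a covariate and 2 other choices of probe set.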

Additional observations from a re-analysis of the deposited data

How the results depend on the processing

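Csrp1 had a negative value in all 16 alternatives (-1.57 to -0.67) and a call in 15, the exception being its second brightest probe set (adjusted p = 0.0994). Actn1 was negative in all 16 (-0.79 to -0.27) and called in 14, the exceptions being array medians set equal and its second brightest probe set. Itga7 was negative in all 15 (-0.80 to -0.42) and called in 4, among them the mean of its probe sets, which repeats its only probe set. Over all 23 genes, 35 of 354 alternative values had another sign than the one reported, in 14 genes, none of which had a call in the fit over 6 arrays. Leaving out the filter and adding the replicate block change no log2 fold change, so those alternatives could not give another sign. For a gene with 1 probe set, the mean of its probe sets repeats the reported value. The count of members lower was 1 with medians set equal and 0 with the second brightest probe sets, where 11 genes were tested, and 2 to 3 when an array was left out. The count of members higher was 1 with the mean of a gene's probe sets (Vcl). The members' median was -0.38 with the Xist-bearing NHE3-/- arrays left out, where Tagln was called, and -0.39 with Xist as a covariate, where Tagln was also called (-2.16). When an array was left out the median ran from -0.26 to -0.04. Probe sets higher numbered 767 with the Xist-bearing arrays left out and 839 to 1211 when an array was left out, the lowest without NHE3-/- array 3. Probe sets lower numbered 839 with medians set equal and 775 to 1385 when an array was left out. The lowest counts came without NHE3+/+ array 3 (775), NHE3-/- array 3 (832), NHE3+/+ array 2 (843) and NHE3-/- array 1 (1011). Deviations of same-numbered arrays correlated at 0.03, -0.04 and 0.00 and 1 of 6 arrays correlated best with its own number. No pairing by number was seen, though deviations within groups of 3 arrays cannot exclude one. With a replicate block 1156 probe sets were higher and 1384 lower, 0 members were higher and 2 lower, their median was -0.11 and Itga7 had an adjusted p of 0.0641. Low signals near the pseudocount limit what the 8 genes below the filter can show.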
